A study of Mus musculus with 4 samples.

Results

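The 3 regions described here are olfactory receptor gene clusters of the mouse genome, given by position in the build mm9: chromosome 2 from 85000000 to 90300000, chromosome 9 from 37400000 to 40200000, and chromosome 7 from 109400000 to 112300000. Together they span 11.0 Mb. CpG methylation was read in them by reduced representation bisulfite sequencing (RRBS), in which DNA is cut with the enzyme MspI, treated with bisulfite so that unmethylated cytosines read as thymines, and sequenced near the cut sites. The cells were mouse embryonic stem (ES) cells, 2 libraries of wild-type (WT) cells and 2 of cells without Naa10 (KO), the catalytic subunit of an N-terminal acetyltransferase. Both genotypes were kept in N2B27 medium with LIF, the Mek inhibitor PD325901 and the Gsk3 inhibitor Chir99021, first on irradiated embryonic fibroblasts and then for 5 passages without them. The design asks whether CpG methylation differs without Naa10. The strain and sex of the cells, how the KO was made, and whether a genotype's 2 libraries stem from different clones or cultures are not given in the labels. A p-value here thus reflects the spread among these 4 libraries alone, and that spread may be technical.

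Of 6669 cytosines of CpG sites listed in the clusters in any library, 1486 had at least 10 calls in each of the 4 libraries and are used below, of 1899909 such cytosines in the genome. They fell into 256 windows of 1 kb. In 151 windows there were at least 3 of these cytosines, and these windows carry the comparisons, of 121563 in the genome; the other 105 held 1 or 2 and enter only an alternative. The level of a cytosine or window is its methylated calls over all its calls, in percent.

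Olfactory receptors are the odour-detecting G protein-coupled receptors of the nose, and their genes form the largest gene family of the mouse, arranged in clusters on many chromosomes. Each olfactory sensory neuron transcribes 1 of them from 1 allele, and the genes are silent in nearly all other cell types. The cluster on chromosome 7 holds the class I, fish-like receptors and surrounds the beta-globin genes. The other 2 clusters hold class II receptors. Bisulfite data carry no expression, so neither the silence of these genes nor the identity of the cells could be checked here.

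The promoters of these genes have few CpG sites and few of the sites at which the method cuts. RefSeq's gene table, which is on another build (GRCm38.p6), was used for names, gene order and sequence only, and no gene was placed on an mm9 position. Whether a window of the 3 regions lies in a receptor gene, or in another gene inside or beside a run, could therefore not be told. The longest runs of neighbouring receptor genes in it held 222 genes on chromosome 2, from Olfr987 to Olfr1274, 91 on chromosome 7, from Olfr543 to Olfr649, and 94 on chromosome 9, from Olfr160 to Olfr986. The run of chromosome 7 also encloses 13 other genes, among them the beta-globin genes Hbb-bt, Hbb-bs and Hbb-y, and its neighbours on either side are Rrm1 and Trim6. Of their promoter entries, each 250 bases before to 50 after the start, 346 were in the table, with 187, 80 and 79 for the 3 chromosomes in that order. The median was 1 CpG in 300 bases for the receptor genes and 8 for the 31907 entries of all genes that are not olfactory receptors. No CpG at all was found in 114 of the 346 (32.9%), against 4.60% of the other entries. An MspI site, which is the palindrome CCGG and so the same on both strands and always holds a CpG, was present in 13 of the 346 (3.76%), against 54.2% of the other entries and 52.8% of all promoters. By run the share was 1.07% on chromosome 2, 6.25% on chromosome 7 and 7.59% on chromosome 9.

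To show what such a promoter looks like, the 250 bases before the start are printed 5′ to 3′ for 4 receptor genes, with each CpG in capitals. Olfr1006 is the first by symbol of those on chromosome 2 without any CpG; the other 3 have, on their chromosomes (2, 7 and 9), the most CpG sites among entries with an MspI site in this stretch. Olfr1006 and the receptor genes Olfr575 and Olfr976 are on the minus strand and Olfr1009 on the plus strand; sequences are from RefSeq, GRCm38.p6.
Olfr1006: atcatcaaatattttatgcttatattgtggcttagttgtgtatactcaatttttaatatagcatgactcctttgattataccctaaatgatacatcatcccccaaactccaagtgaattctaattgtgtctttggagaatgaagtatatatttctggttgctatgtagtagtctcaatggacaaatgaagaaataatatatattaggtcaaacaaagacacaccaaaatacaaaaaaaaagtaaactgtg
Olfr1009: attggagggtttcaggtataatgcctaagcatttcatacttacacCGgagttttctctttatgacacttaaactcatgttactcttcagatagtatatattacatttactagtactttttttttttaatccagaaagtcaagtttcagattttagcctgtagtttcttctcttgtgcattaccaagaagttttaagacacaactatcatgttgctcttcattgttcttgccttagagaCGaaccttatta
Olfr575: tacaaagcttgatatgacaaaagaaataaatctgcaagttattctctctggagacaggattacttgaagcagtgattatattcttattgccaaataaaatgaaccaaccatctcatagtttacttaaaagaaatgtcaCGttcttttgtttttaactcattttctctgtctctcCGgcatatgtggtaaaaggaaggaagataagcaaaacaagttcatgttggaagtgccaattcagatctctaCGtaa
Olfr976: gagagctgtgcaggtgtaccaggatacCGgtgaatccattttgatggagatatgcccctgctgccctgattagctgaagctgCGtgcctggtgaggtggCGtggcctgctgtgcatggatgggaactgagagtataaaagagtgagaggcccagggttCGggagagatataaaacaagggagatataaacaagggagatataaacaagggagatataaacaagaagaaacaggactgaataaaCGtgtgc
Olfr1009 has 2 CpG sites and Olfr575 has 3, in each case with 1 of them inside an MspI site, and Olfr976 has 5, again with 1 inside an MspI site.

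**Figure D1:**
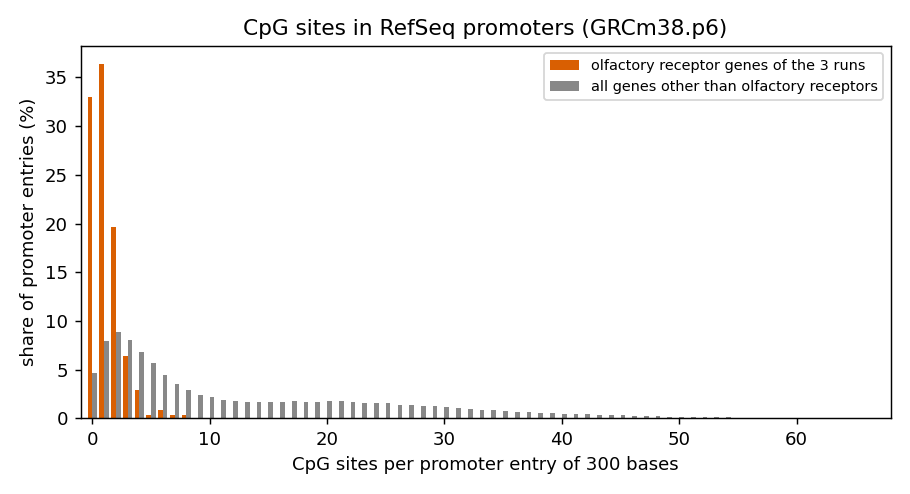
CpG sites per RefSeq promoter entry of 300 bases (horizontal axis) against the share of entries in percent (bars), for 346 entries of olfactory receptor genes of the 3 runs and 31907 entries of genes that are not olfactory receptors. The receptor genes pile up at 0 to 2 CpG sites, with a median of 1 against 8.

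The clusters were thinly covered. They held 606 listed and 135 used cytosines per Mb, against 2149 and 857 per Mb in the rest of chromosomes 2, 7 and 9. The cluster of chromosome 2 was the barest, with 77.7 used cytosines per Mb, followed by chromosome 9 with 165.7 and chromosome 7 with 210.3. Of 53 bins of 100 kb on chromosome 2, 11 held no used cytosine, as did 5 of 28 on chromosome 9 and 3 of 29 on chromosome 7. The longest stretch without one was 263 kb, from 89972732 to 90235260 of chromosome 2. Used cytosines crowded near some edges. The bins from 39900001 to 40200000 of chromosome 9 held 52, 53 and 100, against a median of 6 per bin. Those from 109400001 to 109900000 of chromosome 7 held 45 to 82, against a median of 12. Only 22.3% of the listed cytosines passed the depth minimum, against 39.9% elsewhere on these chromosomes. The used cytosines had a median depth of 22 to 24 calls per library, against 26 to 30 elsewhere, and the windows held 30 to 2656 calls per library with a median of 144.5. The part of all calls that fell in the clusters was 1.02 times as large in KO as in WT, and 1.05, 0.986 and 1.04 for chromosomes 2, 9 and 7. The 4 libraries held 68586396 to 79540412 calls in all.

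CpG methylation in the clusters was high in WT cells and far lower in KO cells. Over the 1486 cytosines the mean level was 56.9% and 57.3% in WT replicates 1 and 2, and 20.3% and 13.6% in KO replicates 1 and 2, so that WT cells had 57.1% ± 0.231 (SD, n = 2) and KO cells 17.0% ± 4.73 (SD, n = 2). The groups did not overlap, and KO replicate 2 was lower than KO replicate 1. The KO minus WT difference was -40.1 percentage points. Permuting the 4 library means (exact test, two-sided) gave p = 0.333, which is the smallest that 2 against 2 libraries allow, and an adjusted p of 0.333 over the clusters together and apart. Cytosines at 80% or more were 50.1% and 51.6% of all in WT replicates 1 and 2, 2.02% in KO replicate 1 and 0.336% in KO replicate 2.

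Each cluster showed the same order of libraries at a different height. On chromosome 2 the cytosines averaged 75.6% and 76.1% in WT, falling to 27.4% and 17.8% in KO replicates 1 and 2. On chromosome 7 they averaged 53.2% and 53.5% in WT and 17.0% and 10.9% in KO. On chromosome 9 they averaged 45.3% and 45.5% in WT and 18.4% and 13.4% in KO. Chromosome 9 therefore had the lowest WT mean over cytosines and, at 35%, the highest share of it left in KO, against 29.8% on chromosome 2 and 26.1% on chromosome 7. Means over cytosines give most weight to windows with many cytosines. Windows with 20 or more were all under 20% in WT, with 1, 5 and 5 of them on chromosomes 2, 7 and 9. The median window lay closer between clusters, at 88.6%, 84.8% and 82.6% in WT on chromosomes 2, 7 and 9. The share is the mean KO level as a percentage of the mean WT level. It differed between the 2 KO libraries too, at 40.4% and 29.6% on chromosome 9 and 31.8% and 20.5% on chromosome 7, but the order of these 2 clusters was the same in each KO library. This order was not tested.

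Nearly every cluster window that was methylated in WT was called lower in KO. For a call, the quasi-likelihood test of edgeR, run on the counts of both states and adjusted by Benjamini-Hochberg over all windows of the genome, had to give an adjusted p below 0.05, and the levels had to differ by at least 10 points. Both conditions were met by 133 of the 151 windows (88.1%), against a background of 76.3% of all windows. The 2 shares are not over like windows, since 13.9% of the cluster windows and 25.4% of all windows had a WT level under 20%. Of the 130 cluster windows at 20% or more in WT, 130 were called lower, and elsewhere on the 3 chromosomes 17060 of 17119 were. By cluster the calls were 48 of 49 windows on chromosome 2, 49 of 57 on chromosome 7 and 36 of 45 on chromosome 9. The windows called lower stood at 88.1% in WT cells at the median and at 19.6% in KO cells. Of these 133, 86 fell by 50 points or more. So did 12250 of the 17557 called lower elsewhere on the 3 chromosomes, and 64660 of 92796 in the genome. The levels of the 2 genotypes did not overlap, with KO lower, in 142 of the 151 windows (94.0%; background 89.0%). No window was called higher, against a background of 0.00247%. Of 3 windows with a higher mean in KO, all under 1% in every library, 0 had an unadjusted p below 0.05 in edgeR, and limma and Fisher's exact test on pooled counts called 0 as well. When each library was first centred on its own median over all windows, on the log2 ratio of methylated to unmethylated calls, limma placed 26 cluster windows above and 18 below that common fall (background 28.7% and 8.73%). Among the 130 windows at 20% or more in WT the split was 13 above and 18 below. Windows outside the clusters were not split in this way, so this split has no background. The centring removes most of the fall itself, so these counts give a window's change relative to the typical window.

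Single cytosines gave the same direction with a smaller share of calls. Of the 1486, 935 (62.9%) were called lower by the same rule, against 34.4% of the genome's cytosines. These shares too are over unlike sets, since 33.2% of the cluster cytosines and 62.0% of the genome's were under 20% in WT replicate 1. None was called higher (background 0.00137%), with 0 at an unadjusted p below 0.05 and a rise in edgeR, the tool used. The call was met by 338 of 412 cytosines on chromosome 2, 366 of 610 on chromosome 7 and 231 of 464 on chromosome 9. At the median the called cytosines fell by 62.9 points. Of 993 cytosines at 20% or more in WT, 68 were not called, and 5 cytosines stayed at 80% or more in both KO libraries. Neither count was made for the genome, so both lack a background. In 1049 of the 1486 both KO levels were under both WT levels (background 43.0%).

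For comparison, all other windows of the same chromosomes were sorted into classes of cytosine number (each number from 3 to 9, then 10 to 19, then 20 or more), and the classes were weighted to the make-up of the clusters. With cytosine number alone, the clusters were more methylated in WT than the comparison windows, at 71.1% against 64.0% averaged over windows. The difference was 6.67 points in WT replicate 1 and 7.5 in WT replicate 2. It was 11.5 points on chromosome 2, 7.20 on chromosome 7 and 2.08 on chromosome 9. When the classes were also split by WT level in steps of 10 points, each of the 151 windows had a class with windows outside, 15873 in all, and WT levels were then 71.1% and 71.2%.

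The share left in KO was close to that of the comparison windows over the 3 clusters together, but not in each of them. KO replicate 1 had 36.2% left in the clusters and KO replicate 2 had 24.2%, against 34.6% and 23.4% in the comparison windows, a mean difference of 1.22 points ± 0.577 (SD, n = 2). On chromosome 9 it was higher than in the comparison windows by 6.09 points in KO replicate 1 and 6.31 in KO replicate 2, with shares of 41.1% and 29.9% against 35% and 23.6%. On chromosome 7 it was lower by 2.12 and 2.61 points, and on chromosome 2 it differed by 1.98 and 0.0588 points. The exact permutation test over libraries of the cluster minus comparison level, two-sided, gave p = 0.333 for the 3 clusters together, for chromosome 9 and for chromosome 7 (adjusted over the 4 tests p = 0.444), and p = 0.667 for chromosome 2; it cannot go below 0.333. Without the cluster of chromosome 9 the difference was -0.672 points, and with windows of 1 or 2 cytosines let in it was -0.734 points, so its direction for the 3 clusters together rests on that cluster and on the window minimum.

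**Figure D2:**
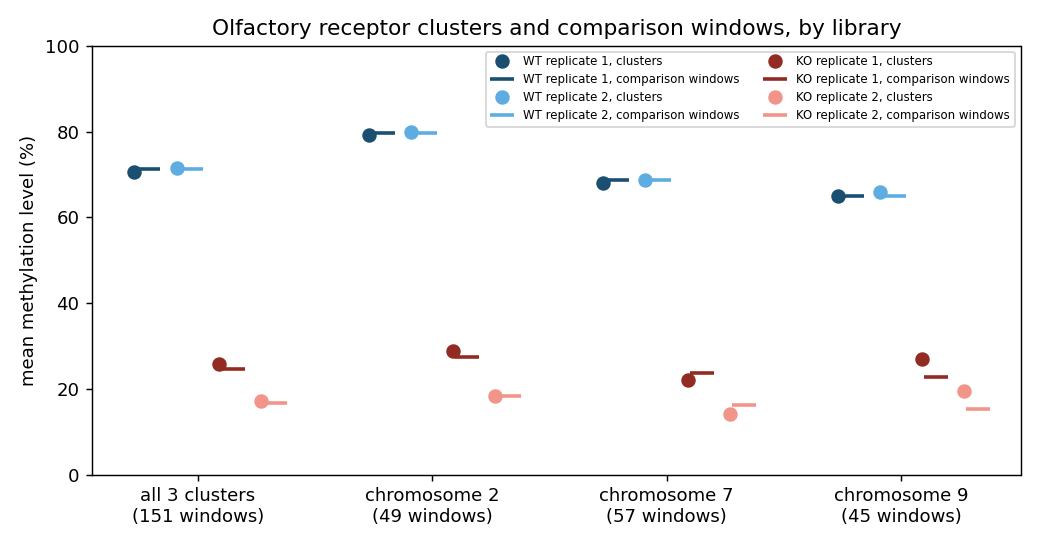
Mean methylation level in percent (vertical axis) of the 151 windows of the 3 clusters together and of each cluster, by library (dots), beside the comparison windows of the same chromosome, cytosine number and WT level (dashes). WT dots and dashes lie close because WT level chose the comparison windows; the 2 KO dots lie above their dashes on chromosome 9 (26.9% and 19.6% against 22.8% and 15.3%) and below them on chromosome 7.

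The higher share on chromosome 9 was seen in its most methylated windows. To keep the choice of windows apart from the values compared, windows were sorted by WT replicate 1 and read in the other 3 libraries. The 17 windows of chromosome 9 at 90% or more averaged 94.2% in WT replicate 2, while KO replicate 1 had 50.5% there and KO replicate 2 had 38.6%. The 20 such windows of chromosome 7 averaged 92.04%, 29.3% and 19.1%, and the 18 of chromosome 2 averaged 92.4%, 41.0% and 26.5%. Elsewhere on the 3 chromosomes 5722 windows of this class averaged 92.3%, 36.0% and 24.6%. In the class from 80 to 90% the order was the other way, with 19.1% of the level left in KO in 6 windows of chromosome 9, against 26.4% elsewhere. From 50 to 80% the 3 clusters had 23.4% to 24.0% left, against 23.4% elsewhere. At 20 to 50% the 10 cluster windows had 12.03% left, against 22.1% elsewhere.

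The windows with the highest KO levels lay close together on chromosome 9. Both KO libraries had 50% or more in 6 of the 92 cluster windows at 80% or more in WT, which is 6.52%, against 1.46% elsewhere on the 3 chromosomes; 5 of the 6 were on chromosome 9. The window 38701001 to 38702000 of chromosome 9, with 4 cytosines, had 99.0% and 97.6% in WT and 81.5% and 71.4% in KO. It fell by 21.8 points, with 7.80e-06 as adjusted p (edgeR), so it too was called lower. The window 38426001 to 38427000, with 10 cytosines, had 91.4% and 85.8% in WT and 72% and 53.0% in KO. Its fall of 26.1 points had 0.000106 as adjusted p (edgeR), which became 0.0996 without WT replicate 1. Without KO replicate 2 it fell by 16.6 points.

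The neighbours of these windows were described after their values had been seen. The window 38445001 to 38446000 had 93.6% and 95.1% in WT and 67.7% and 57.1% in KO, and the window 38396001 to 38397000 had 96.2% and 96.4% in WT and 57.5% and 61.4% in KO. Between them and 38701001, the window 38641001 to 38642000 had 71.1% and 75.3% in WT and only 18.8% and 13.1% in KO. High KO levels were thus frequent in this stretch of about 0.3 Mb but not continuous over it. The fifth window, 40177001 to 40178000, lay apart, near the far edge of the cluster, with 63.1% and 54.4% in KO.

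On the other 2 clusters the highest KO levels were lower. On chromosome 2 the window 87123001 to 87124000, with 3 cytosines, had 96.9% and 92.5% in WT and 60.3% and 52.4% in KO. The window 87243001 to 87244000, with 8 cytosines and 357 to 487 calls per library, had 95.9% and 96.6% in WT and 60.4% and 45.8% in KO. On chromosome 7 the window 110445001 to 110446000 had 95% and 96.1% in WT and 59.7% and 48.5% in KO. The window 110767001 to 110768000 had 82.0% and 80.6% in WT and 54.8% and 44.8% in KO, where edgeR's adjusted p was 0.000403, 0.0712 without WT replicate 1 and 0.05 without WT replicate 2.

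At the opposite end were windows with high WT levels and far larger falls. The largest fall on chromosome 7 was in the window 112131001 to 112132000, from 97.0% and 91.2% in WT to 11.5% and 1.52% in KO, a difference of -87.5 points with 4.76e-20 as adjusted p (edgeR). On chromosome 2 it was in the window 85336001 to 85337000, from 85.0% and 96.2% to 8.77% and 2.78%, and on chromosome 9 in the window 39713001 to 39714000, from 81.8% and 100% to 20.4% and 12.1%. These 3 windows hold 3 or 4 cytosines and 33 to 80 calls per library. Of the 92 cluster windows at 80% or more in WT, 17 were under 20% in both KO libraries (18.5%), against 15.6% elsewhere on the 3 chromosomes. Windows of like WT level therefore ended far apart: among the 57 cluster windows at 90% or more in WT, mean KO levels ran from 5.77% to 76.5%, with a median of 33.3%. The extremes are windows of 3 and 4 cytosines, and the part of counting error in this range was not tested. The range was not taken for windows elsewhere, so it has no background.

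**Figure D3:**
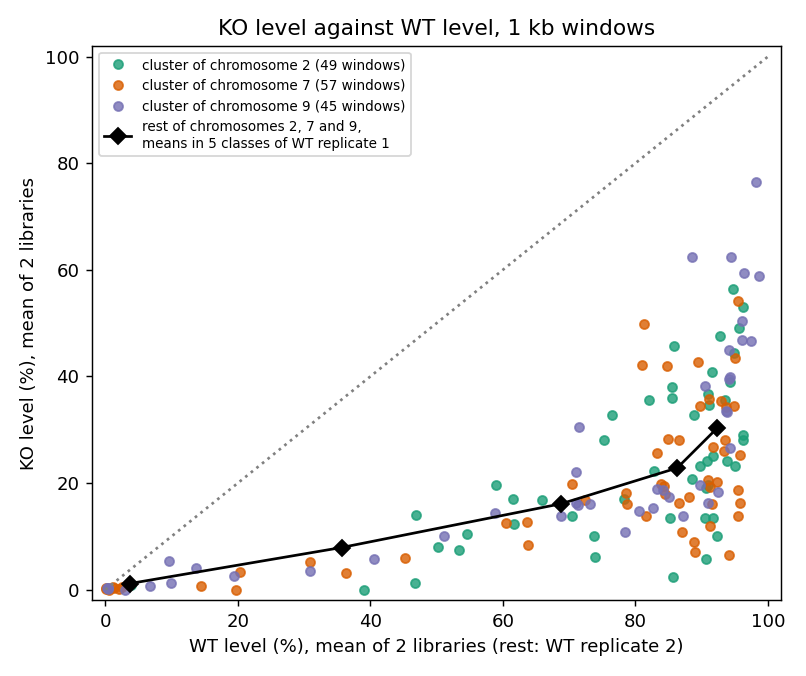
Mean KO level against mean WT level in percent, each dot a 1 kb window of a cluster, with the means of the rest of the 3 chromosomes in 5 classes of WT level (black diamonds) and the line of equal levels (dotted). At WT levels of 90% or more the dots spread from 5.77% to 76.5% in KO, and the 5 highest dots of the plot are windows of chromosome 9.

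Windows also differed inside. Of the cluster windows with at least 5 cytosines and a WT level of 80% or more, 52 in number with 461 cytosines, the median distance between the highest and the lowest cytosine was 15.1 points in WT and 40.5 points in KO. Elsewhere on the 3 chromosomes, 6444 such windows had 16.1 and 33.2 points. Counting error is larger at intermediate levels, and its part in the wider KO range was not tested. The differences between cytosines of a window were shared in part by the 2 KO libraries, and by the 2 WT libraries too. Across the 461 cytosines, deviations from the window's mean correlated with r = 0.687 between KO replicates 1 and 2 and with r = 0.768 between the WT replicates, against 0.650 and 0.695 elsewhere. The 461 include 3 cytosines at 5% or less in WT, and their part in r was not tested. On chromosome 9, which held none of the 3, r was 0.642 (KO) and 0.610 (WT). On chromosome 2 it was 0.697 and 0.817, and on chromosome 7 it was 0.709 and 0.792. Cytosines of a window share reads and are not independent, so these values are a description.

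The window 110445001 to 110446000 of chromosome 7 shows such a pattern. Its 5 cytosines, at positions 110445360, 110445366, 110445405, 110445446 and 110445461, were all between 89.3% and 100% in the WT libraries. KO replicate 1 had 67.2%, 83.6%, 27.9%, 41.0% and 78.7% there, and KO replicate 2 had 51.5%, 84.8%, 9.09%, 33.3% and 63.6%. The cytosine at 110445405 was the lowest of the 5 in each of the 4 libraries, at 89.3% and 90.2% in WT. Each was read 61 times in KO replicate 1 and 33 times in KO replicate 2. In the window 38426001 to 38427000 of chromosome 9 the 2 strands of the CpG at 38426439 and 38426440 had the lowest KO levels of the 10 cytosines, 46.2% and 21.9% in KO replicate 1 and 6.25% and 17.9% in KO replicate 2. These were also the lowest of the window in WT, at 44.1% to 71.1%.

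**Figure D4:**
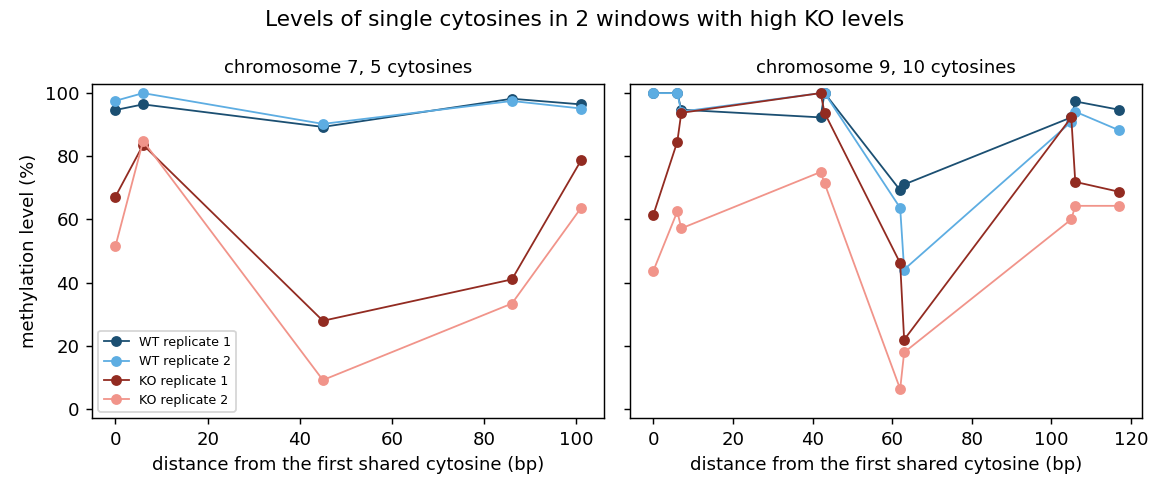
Methylation level in percent of single cytosines by distance in bp from the first one, in 2 windows chosen for high KO levels, with 1 line per library. On chromosome 7 all 4 lines are lowest at the same cytosine, at 89.3% and 90.2% in WT and 27.9% and 9.09% in KO; on chromosome 9 all 4 lines are lowest at the same pair.

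A small group of windows had little methylation in WT cells already. WT levels were under 20% in 21 of the 151 windows (13.9%, against 27.1% elsewhere on the 3 chromosomes), with 1 on chromosome 2, 10 on chromosome 7 and 10 on chromosome 9. Of these 21, 3 were called lower, against 497 of 6376 such windows elsewhere on the 3 chromosomes and 2451 of 30915 in the genome. The other 18 were not called and had WT levels of at most 13.6%. No cluster window outside this group was left uncalled. The 11 windows with 20 or more cytosines were all in this group, but 1 of them stood apart. The window 39203001 to 39204000 of chromosome 9, with 27 cytosines, had 21.1% and 17.7% in WT and 4.12% and 1.02% in KO, and was called lower. The other 10 had mean levels of 0.139% to 3.84% in WT. Elsewhere on the 3 chromosomes 85.6% of windows with 20 or more cytosines had a WT level under 20%. The window with the most cytosines was 37464001 to 37465000 of chromosome 9, with 53 cytosines and 2072 to 2656 calls per library, at 0.151% and 0.302% in WT and 0.241% and 0.303% in KO. The window 109661001 to 109662000 of chromosome 7, with 51 cytosines, had 1.87% and 2.33% in WT and 0.144% and 0.241% in KO. Its adjusted p was 4.77e-07 in the edgeR test, and it was not called because the difference was 1.91 points.

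The single window of this group on chromosome 2 lay in the middle of its cluster. The window 87366001 to 87367000 has 35 cytosines within 273 bases and had 5.26% and 2.42% in WT and 0.977% and 0.782% in KO. Its first cytosine, at 87366063, had the highest WT mean, with 31.2% and 30.0% in WT and 0.00% and 10.5% in KO, read 10 to 19 times per library. The lowest WT level on chromosome 7 was in the window 109590001 to 109591000, at 0.00% and 0.220% in WT and 0.696% and 0.00% in KO. Windows under 20% in WT lay within 200 kb of a cluster's edge in 7 of 10 cases on chromosome 9 and 3 of 10 on chromosome 7.

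The edges and the inside of a cluster lay furthest apart on chromosome 9, a difference that was not tested. On chromosome 2 the 5 windows within 200 kb of an edge averaged 74.8% in WT and 25.1% in KO, and the 44 further inside 80.1% and 23.4%. On chromosome 7 the 13 edge windows averaged 64.04% and 15.8%, and the 44 inside 69.6% and 18.9%. On chromosome 9 the 21 edge windows averaged 56.1% and 17.5%, and the 24 inside 73.7% and 28.3%. The flanks of 1 Mb on either side were less methylated in WT and more densely covered. These flanks were not matched to the clusters on cytosine number or WT level. They averaged 45.5% and 49.1% in WT around chromosome 2 from 73 and 92 windows, 39.7% and 54.7% around chromosome 9 from 77 and 99 windows, and 54.8% and 46.5% around chromosome 7. The share left in KO was 23.5% to 28.8% in these 6 flanks. Inside the clusters it was 38.3% on chromosome 9, 29.3% on chromosome 2 and 27.2% on chromosome 7. At the edges it was 31.3%, 33.6% and 24.7% in the same order.

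**Figure D5:**
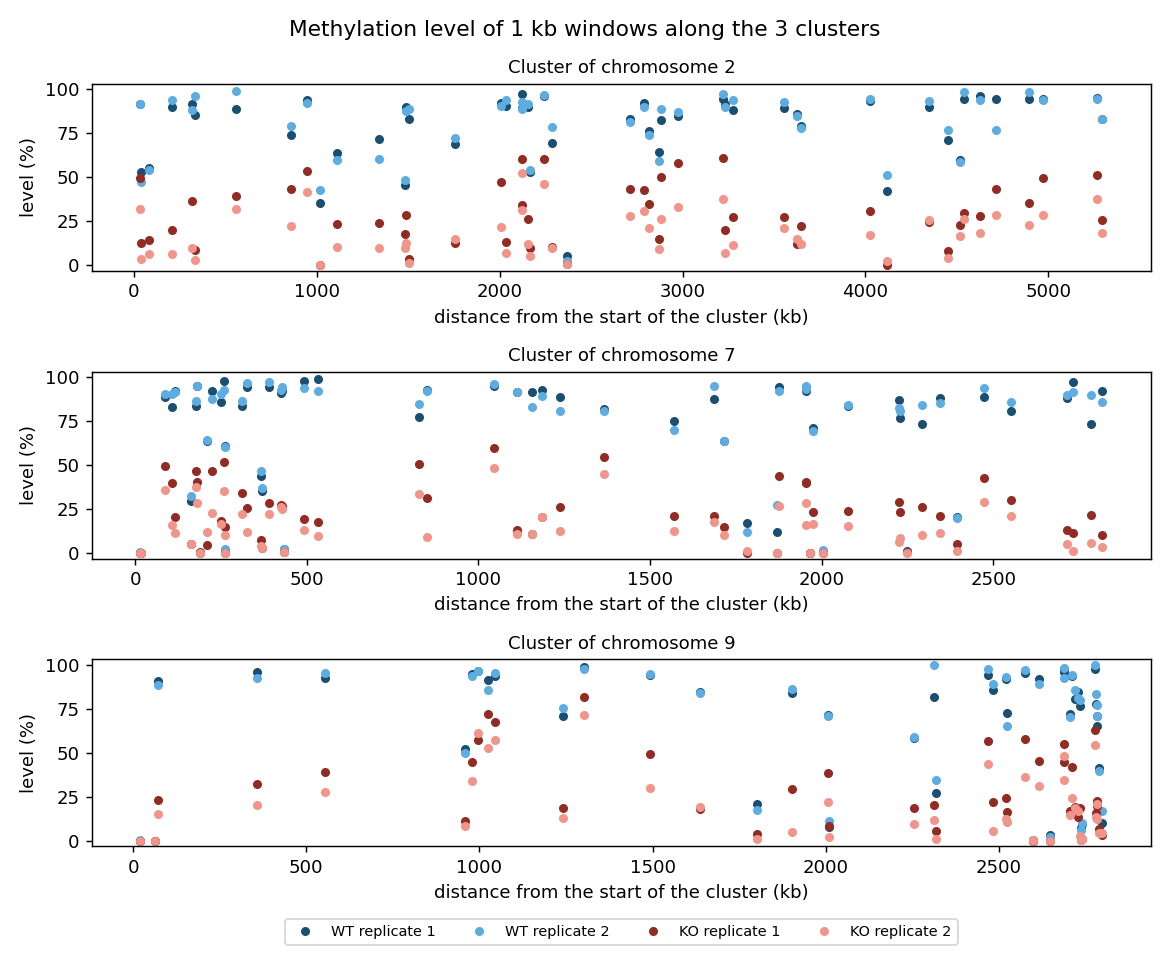
Methylation level in percent of each 1 kb window against its distance in kb from the start of the cluster, for the 4 libraries, 1 panel per cluster. KO dots lie below WT dots along each cluster except where both are near 0; on chromosome 9, 4 windows from 996 to 1301 kb have both KO dots above 50%, with a lower window between them, and gaps are stretches without windows of at least 3 used cytosines.

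The 2 KO libraries differed from each other far more than the 2 WT libraries did. Over windows with at least 10 calls of each state, the chi-square per degree of freedom was 1.24 for the WT pair in 132 cluster windows and 7.04 for the KO pair in 127, where counting error alone gives about 1. Elsewhere on the 3 chromosomes it was 1.45 and 6.64. KO replicate 2 was below KO replicate 1 in 126 of the 151 windows (83.4%), against 81.2% of all windows of the genome, and its mean level over the windows was 66.8% of that of KO replicate 1.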

How the data were processed

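RRBS libraries of 2 WT and 2 Naa10-KO mouse ES cell samples were analysed. Per the submitters' processing notes, Trim Galore, Bismark 0.10.1 and the build mm9 were used; their settings are not stated in the labels. MspI cut 50 ng of DNA for 3 h, per the labels' protocols, and fragments of 150 to 500 bp were kept. The deposited files give, for each cytosine, the percent methylated and the counts of methylated and unmethylated calls made by the authors; the percent was recomputed from these counts. PCR copies cannot be told apart in RRBS, so counts are not independent molecules.

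Cytosines with at least 10 calls in each library were kept, and summed in 1 kb windows with at least 3 of them. Levels were compared with edgeR 4.0.16 (quasi-likelihood, library terms, Benjamini-Hochberg adjustment over the genome; a call needs an adjusted p below 0.05 and 10 points) in R 4.3.3, and means over libraries with exact permutation tests. Comparison windows were all windows outside the clusters on the same chromosome in the same class of cytosine number and WT level, weighted to the cluster windows. Alternatives were limma 3.58.1 on log2 ratios of the counts plus 0.5, Fisher's test on pooled counts, other coverage minimums, window sizes and minimum differences, libraries left out in turn, and a replicate term. On simulated data for the window test, the test recovered 94 of 100 windows shifted 30 points and 42 of 100 shifted 15 points among 121563, with 2 unchanged windows called. For cytosines it was 12 and 0 of 100 among 100000. In these simulations every library was given the spread of the WT pair, and no other windows or cytosines were shifted. In the clusters the KO pair spread more (chi-square per degree of freedom 7.04 against 1.24). The recovery counts therefore do not measure the test on libraries that differ like the KO pair. Windows named in the text were, in each cluster, the one with most cytosines, the lowest WT level, the 2 highest KO levels, and the largest fall; others are said to be chosen after their values were seen. The rule for the members uses positions and depth and no methylation level, but the regions and lists were chosen with earlier results of these data known. No gene was assigned to an mm9 position.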

Additional observations from a re-analysis of the deposited data

How the results depend on the processing

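The direction of the KO minus WT difference over the clusters' cytosines held under each of its 7 alternatives, with values from -43.7 to -36.6 points when single libraries were left out. The share of the WT level left in KO then ran from 24.1% to 35.6%, and its difference from the comparison windows from 0.837 to 1.87 points. The count of windows called lower was 133 of 151 with limma, with Fisher's exact test and with the replicate block. The genome's share in these was 76.3% to 76.5%, and 0 cluster windows were called higher in each of them. With the replicate block, 915 of 1486 cytosines were called lower (61.6%), against 33.9% of the genome's. Deviations of like-numbered libraries were nearly uncorrelated over windows, at 0.0656 in the clusters and -0.00388 in the genome. Such values cannot settle whether replicate numbers pair the samples.

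Counts of windows called lower followed the number tested. They were 213 of 231 at a coverage minimum of 5 (92.2%; genome 79.9%) and 54 of 68 at a minimum of 20 (79.4%; genome 68.2%). With at least 1 cytosine they were 233 of 256 (91.0%; genome 80.9%). At a minimum of 20, 375 of 604 cytosines were called (62.1%; genome 34.0%). Centred on the median, 18 of 151 windows were lower (11.9%, genome 8.73%) and 26 of 151 higher (genome 28.7%), each relative to the typical window. The share difference from comparison windows reversed to -0.734 points for the 3 clusters and to -1.80 points for chromosome 2 with at least 1 cytosine, to 0.797 points for chromosome 7 at a coverage minimum of 20, and to -0.672 points for the clusters without the cluster of chromosome 9, an alternative chosen after seeing the data; the cause was not tested. Over all alternatives it ran from -0.734 to 4.17 points for the clusters and from 4.05 to 9.47 points for chromosome 9. The window starting at 38426001 lost its call without WT replicate 1, and the window starting at 110767001 without WT replicate 1 or WT replicate 2. Precision is limited by 2 libraries a group and by 30 calls in the thinnest window.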

Other observations

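Inside densely methylated windows of the clusters, 3 single cytosines were nearly without methylated calls in all 4 libraries. These windows have at least 5 used cytosines and a WT level of 80% or more, and 5% or less in WT was the limit for a low cytosine, which 0.651% of the 461 cytosines met, against 0.231% elsewhere on chromosomes 2, 7 and 9. At position 87713194 of chromosome 2, in a window at 82.1% in WT, the libraries had 0 methylated of 21 and 23 calls (WT) and of 25 and 19 calls (KO). At position 111952904 of chromosome 7, in a window at 83.2% in WT, there were 0 of 23, 17, 14 and 19. At position 110767324 of chromosome 7 there were 0 of 19, 14 and 21 and 1 of 22. No sequence of these cells was used, so whether their genome matches the reference at these 3 positions was not tested; where a base differs, a count of 0 is not a methylation level, and the same limit holds for the 2 percentages.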
